A study of Mus musculus with 6 samples.

Results

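Uncoupling protein and beige fat genes, 10 in all, read as 10 rows of the deposited count table of 53801 genes, were followed in adipocyte cultures with and without an intact Ythdf1 gene. They were the uncoupling protein genes Ucp1, Ucp2 and Ucp3 and 7 genes commonly used to mark brown or beige fat cells: Prdm16, Dio2, Kcnk3, Slc36a2, Tbx1, Tmem26 and Letmd1. They were chosen by name, each symbol matched 1 Ensembl gene, and all 10 passed the filter on low counts. The cells were stromal vascular fraction cells of mouse inguinal fat, the non-adipocyte cells among which fat cell progenitors are found, which were taken from wild-type or Ythdf1 knockout mice and were given adipogenic induction in culture for 4 days. Each genotype had 3 libraries, biological replicates according to the series. No agent, cold or adrenergic stimulus beyond that induction is named in the labels. Not given in the sources used here: strain, sex and age of the mice, the induction medium and the design of the knockout allele.

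Beige adipocytes are heat-producing fat cells that arise within white depots, and inguinal fat is the depot of the mouse best known for forming them. Their heat comes from UCP1, a carrier of the inner mitochondrial membrane that lets protons re-enter the matrix without making ATP, while the related UCP2 and UCP3 are carriers of the same family that are not regarded as heat producers of this kind. PRDM16 is a transcriptional coregulator that holds cells in the brown or beige state, and DIO2 is the deiodinase that makes active thyroid hormone inside brown fat cells. The remaining genes are used as markers of the cell type.

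Of the 10 genes 6 were higher in knockout cultures and 0 were lower. The test was the quasi-likelihood test of edgeR, with Benjamini-Hochberg adjustment over 14816 genes, of which 22.6% were higher and 21.7% lower, 44.3% together. Ucp1, Ucp2, Ucp3, Kcnk3, Slc36a2 and Letmd1 rose, by between 2.56-fold for Letmd1 and 37.1-fold for Ucp1. With 5, 2 and 1 counts in wild type, Ucp1 reached the minimum count of 10 of the filter in knockout libraries alone. A call as lower was thus hardly open to Ucp1, which limits what its place in the count of genes that rose can show. Prdm16, Dio2, Tbx1 and Tmem26 did not pass the test. The median log2 fold change of the 10 was 1.81, against 0.01 over all genes tested. The knockout values lay wholly above the wild-type values for 8 of the genes, wholly below for Dio2, and overlapped for Tmem26; over all tested genes 55.2% did not overlap, 27.9% wholly above and 27.3% wholly below. Since whole cultures were measured, more cells of a type and more RNA per cell cannot be told apart in any of these values.

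**Figure D1:**
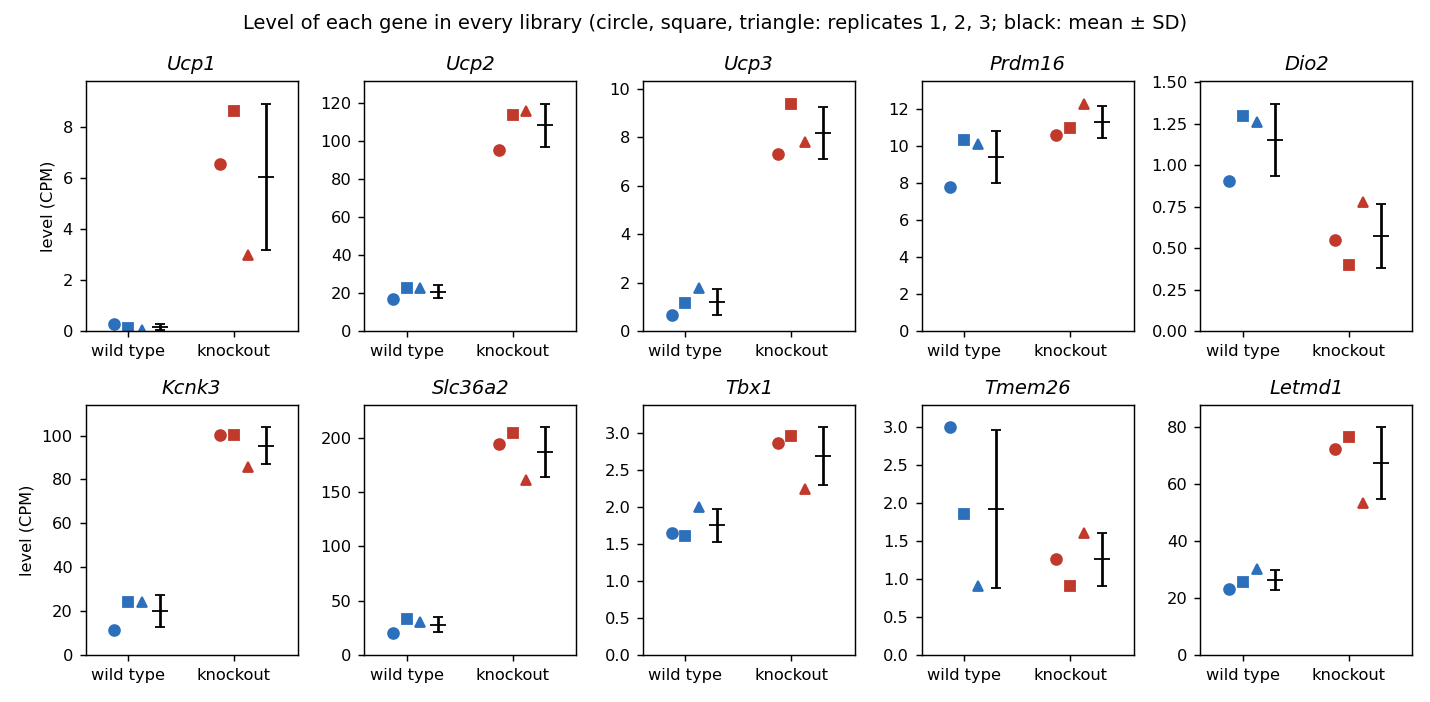
Level of each of the 10 genes in CPM (counts scaled to library size, y axis, starting at 0 and scaled per gene) in the 3 wild-type (blue) and 3 knockout (red) libraries, with mean and SD in black (n = 3). Ucp1 is near 0 in wild type and spread from 2.97 to 8.64 CPM in knockout, while the points of Prdm16, Tbx1 and Tmem26 lie close together or overlap.

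Library totals ran from 16619605 to 20089138 counts, so that 3 counts, taken as the floor of detection, equalled 0.146 to 0.185 CPM. Ythdf1 itself was at 43.8 ± 1.15 CPM in knockout against 61.8 ± 1.34 CPM in wild type (mean ± SD, n = 3), lower in all 3 knockout libraries but far from 0. Of 16 markers of mature adipocytes each was higher in the knockout, and their summed level ran from 22520 to 28600 CPM there, and from 4637 to 7303 CPM in wild type. All 12 macrophage markers lay above wild type in every knockout library and all 12 were highest in knockout replicate 3, where their sum was 811 CPM against 301 and 303 CPM in knockout replicates 1 and 2 and 94.1 to 170 CPM in wild type. Skeletal muscle markers summed to 4.95 to 6.73 CPM in knockout against 8.16 to 16.7 CPM in wild type, with Myog, Myod1 and Pax7 at 0 counts in all 6 libraries. Of the other marker lists, 10 of 12 macrophage genes passed as higher and 0 as lower, while progenitor markers gave 0 higher and 9 lower of 12, myofibroblast markers 0 higher and 6 lower of 6, and epithelial markers 0 higher and 6 lower of 7 tested. Beside these counts stand the shares over all tested genes, 22.6% higher, 21.7% lower and 27.9% with knockout values wholly above wild type. Lymphocyte markers summed to at most 0.572 CPM in any library. Endothelial markers summed to 24.3 to 34.0 CPM in knockout against 21.9 to 27.8 CPM in wild type.

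The stretches just before the start sites of the 3 uncoupling protein genes, which rose, and of Dio2, which did not, are shown. Dio2 is known to respond to cyclic AMP in brown fat. Any link between a motif and a change in level was not tested. Each is 250 bases from RefSeq (GRCm38.p6), read on the gene's own strand and ending at the base before the annotated start, with motif matches in capitals. The windows are chr8:83290098-83290347 (plus strand) for Ucp1, chr7:100493108-100493357 (plus strand) for Ucp2, chr7:100472741-100472990 (plus strand) for Ucp3 and chr12:90739039-90739288 (minus strand) for Dio2.
Ucp1: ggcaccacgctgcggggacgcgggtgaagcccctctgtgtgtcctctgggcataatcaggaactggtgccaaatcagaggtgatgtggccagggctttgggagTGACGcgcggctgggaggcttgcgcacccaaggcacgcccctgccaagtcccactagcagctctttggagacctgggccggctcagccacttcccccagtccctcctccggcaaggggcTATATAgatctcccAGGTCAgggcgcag
Ucp2: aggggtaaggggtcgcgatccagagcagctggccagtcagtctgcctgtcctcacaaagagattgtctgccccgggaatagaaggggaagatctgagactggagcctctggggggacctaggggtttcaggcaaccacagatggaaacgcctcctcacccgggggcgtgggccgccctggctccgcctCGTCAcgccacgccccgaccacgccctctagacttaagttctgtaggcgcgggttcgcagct
Ucp3: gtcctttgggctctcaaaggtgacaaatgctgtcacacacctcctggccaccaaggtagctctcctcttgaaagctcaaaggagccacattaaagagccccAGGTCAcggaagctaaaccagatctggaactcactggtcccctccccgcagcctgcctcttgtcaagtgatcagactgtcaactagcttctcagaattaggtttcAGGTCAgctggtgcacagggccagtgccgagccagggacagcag
Dio2: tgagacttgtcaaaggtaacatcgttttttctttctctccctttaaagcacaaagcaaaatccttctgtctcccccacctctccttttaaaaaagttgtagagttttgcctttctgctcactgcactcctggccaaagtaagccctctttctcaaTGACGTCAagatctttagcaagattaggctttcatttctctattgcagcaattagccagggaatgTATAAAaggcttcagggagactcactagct
The letters searched on both strands were TGACGTCA, the full cyclic AMP response element; its shorter core TGACG, which overlaps it; AGGTCA, a half-site of nuclear receptors such as PPARs; and the TATA-type runs TATAAA and TATATA. The Ucp1 window held TGACG beginning 147 bases before the start, TATATA at 28 and AGGTCA at 14. The Ucp2 window held the core on the opposite strand, printed as CGTCA, at 62 bases, and no TATA-type run. The Ucp3 window held AGGTCA at 149 and 44 bases. In the Dio2 window the full element stood at 95 bases and TATAAA at 30. Of 32851 such windows of mouse genes, 1.55% held TGACGTCA, 17.8% TGACG, 14.0% AGGTCA, 12.4% TATAAA and 5.25% TATATA, so each but the first is common. RefSeq starts Dio2 600 bases upstream of the start used in the GENCODE annotation. Entries were found for 8 of the 10 genes, the others being Kcnk3 and Slc36a2.

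Ucp1 (ENSMUSG00000031710, chromosome 8, 83290352 to 83298452, plus strand, GRCm38) had 119, 152 and 61 raw counts in knockout replicates 1 to 3 against 5, 2 and 1 in wild-type replicates 1 to 3. In CPM these were 6.54, 8.64 and 2.97 against 0.283, 0.124 and 0.0572. Every knockout library stood well above every wild-type library, and wild-type replicates 2 and 3 stood below the floor of 3 counts. The fold change was 37.1, with a 95% interval from 15.7 to 88.0 (edgeR adjusted p = 3.33e-05, higher in 3 of 3 knockout libraries). The summed counts alone, 332 against 8, gave a ratio of 37.9 with an exact Clopper-Pearson 95% interval from 19.0 to 88.4, which covers counting error only. The size of the fold rested on few wild-type counts: the log2 value was 5.21, rose to 5.97 without wild-type replicate 1, and was 4.47 among the libraries whose names end in L1, a suffix that the labels do not explain.

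Ucp2 (ENSMUSG00000033685, chromosome 7, 100493337 to 100502020, plus strand) is expressed in many tissues and strongly in macrophages. It had 95.4, 113.9 and 116 CPM in the knockout libraries and 17.1, 22.8 and 22.7 CPM in the wild-type libraries. The groups were far apart and the libraries of each group were close together. The fold was 5.20 (95% interval 4.29 to 6.29, edgeR adjusted p = 3.59e-07). Knockout replicate 3, with the highest macrophage marker sum, also had the highest Ucp2 level, and the log2 fold change was 2.38 with it and 2.33 without it. The part of macrophage RNA in the level of Ucp2 was not tested. On the opposite strand the 3′ neighbour Dnajb13 shares 305 bases of exon with Ucp2, and its own counts of 31, 28 and 35 in knockout against 2, 7 and 7 in wild type followed the same direction.

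Ucp3 (ENSMUSG00000032942, chromosome 7, 100472990 to 100486432, plus strand), best known from skeletal muscle, lies 6905 bases before Ucp2. Its levels were 7.31, 9.38 and 7.80 CPM in knockout against 0.679, 1.17 and 1.77 CPM in wild type. All knockout libraries were higher than all wild-type libraries. The summed muscle markers were 4.95 to 6.73 CPM in the knockout libraries and 8.16 to 16.7 CPM in the others, and the part of muscle cells in the Ucp3 level was not tested. The fold was 6.72 (95% interval 4.34 to 10.4, edgeR adjusted p = 1.92e-05). C2cd3, 2838 bases away on the other side, stood at -0.03 on the log2 scale and missed the threshold (edgeR adjusted p = 0.824). The antisense gene Gm10603, which overlaps Ucp3 without shared exon bases, rose by 1.61 on the log2 scale.

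Measured per kilobase of merged exons, so that genes can be set side by side, Ucp2 was the most abundant uncoupling protein transcript in every library. It made up 68.3%, 66.3% and 79.4% of the summed level of the 3 genes in knockout replicates 1 to 3 against 84.4% to 87.9% in wild type. The share of Ucp1 was 20.02%, 21.5% and 8.70% in knockout against 6.10%, 2.04% and 0.906% in wild type, so the groups did not overlap but knockout replicate 3 stood close to wild-type replicate 1. That of Ucp3 was 11.7% to 12.2% in knockout against 7.64% to 14.7% in wild type, which overlapped. With the longest transcript as the length the mean share of Ucp1 was 10.8% in knockout against 1.80% in wild type, because the merged exons of Ucp2 (6989 bases) are longer than its longest transcript (3988 bases).

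Among genes of the cell surface, Slc36a2 (ENSMUSG00000020264, chromosome 11, 55158470 to 55185077, minus strand), a proton-coupled transporter of small amino acids and a surface marker of brown and beige fat, had 195, 205.0 and 161 CPM in knockout against 19.9, 33.4 and 30.1 CPM in wild type. The lowest knockout library was several times the highest wild-type library. The fold was 6.74 (95% interval 5.06 to 8.98, edgeR adjusted p = 4.69e-06). Its gene neighbour and relative Slc36a3 had 0 counts in all 6 libraries, while the relative Slc36a4 fell by 0.40 on the log2 scale.

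Kcnk3 (ENSMUSG00000049265, chromosome 5, 30588170 to 30625271, plus strand), which encodes an acid-sensitive potassium leak channel of the cell membrane, had 100.2, 100.2 and 85.7 CPM in knockout against 11.5, 24.1 and 24.1 CPM in wild type. The groups were separate, with wild-type replicate 1 well below the other wild-type libraries. The fold was 4.80 (95% interval 3.13 to 7.36, edgeR adjusted p = 0.000402). Of 13 other genes of the channel family 3 had enough counts to be tested, and Kcnk2 fell by 0.71 on the log2 scale, a call that ended without knockout replicate 1 or 3 or wild-type replicate 3, and among L1 libraries alone. The others did not pass. The antisense gene Gm9899 shares 229 bases of exon with Kcnk3 and had 23, 63 and 34 counts in knockout against 2, 3 and 18 in wild type, a difference that no longer passed without knockout replicate 2 or wild-type replicate 1 or 2.

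Letmd1 (ENSMUSG00000037353, chromosome 15, 100469023 to 100479164, plus strand) encodes a mitochondrial protein that mice need for normal brown fat. Its levels were 72.4, 76.8 and 53.3 CPM in knockout against 23.2, 25.6 and 30.1 CPM in wild type. The groups did not overlap, and knockout replicate 3 was again the lowest of its group. The fold was 2.56 (95% interval 2.05 to 3.20, edgeR adjusted p = 3.23e-05). Letm1, a mitochondrial ion exchanger with a related domain, rose by 1.77 on the log2 scale and Letm2 did not pass. Csrnp2, on the opposite strand with its 3′ end 406 bases beyond that of Letmd1, had a log2 fold change of 0.28 (edgeR adjusted p = 0.136).

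**Figure D2:**
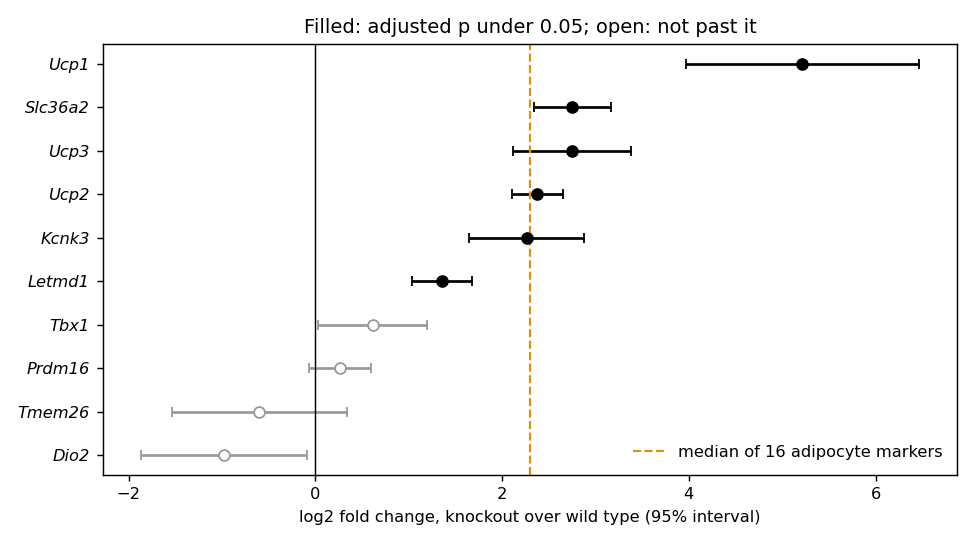
Log2 fold change of each gene, knockout over wild type, with its 95% interval from the edgeR fit (3 libraries per genotype); filled points have an adjusted p under 0.05 and the dashed line is the median of 16 adipocyte markers, 2.30. The intervals of Ucp2, Ucp3 and Kcnk3 include the dashed line, those of Ucp1 and Slc36a2 lie above it and those of Letmd1, Tbx1, Prdm16, Tmem26 and Dio2 lie below it.

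Prdm16 (ENSMUSG00000039410, chromosome 4, 154316125 to 154636873, minus strand) had 10.6, 10.97 and 12.3 CPM in knockout against 7.80, 10.3 and 10.1 CPM in wild type. The knockout values lay just above the wild-type values. The ratio was 1.2, with a 95% interval between 0.954 and 1.51, so that a rise of up to 1.51-fold is within the interval (edgeR adjusted p = 0.182). Mecom, which encodes the closest relative of PRDM16, did not pass with 0.19 on the log2 scale, and neither did Ehmt1, Ctbp1 or Zfp516, whose products are known to bind PRDM16 or to act with it. Ctbp2 had a log2 fold change of -0.27 and an edgeR adjusted p of 0.0295, a call that ended whenever any library but knockout replicate 3 was left out, under DESeq2, without the filter on low counts and among L1 libraries alone. Ctbp1, at -0.21 with an edgeR adjusted p of 0.0605, was in contrast lower past the threshold with upper-quartile factors, under limma-voom, among L1 libraries and without wild-type replicate 3.

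Dio2 (ENSMUSG00000007682, chromosome 12, 90724552 to 90738438, minus strand) was the rarest of the 10 genes in knockout per length. Raw counts stood at 10, 7 and 16 in knockout against 16, 21 and 22 in wild type, or 0.550, 0.398 and 0.780 CPM against 0.905, 1.30 and 1.26 CPM. All 3 knockout values were below the wild-type values. The ratio was 0.508, its 95% interval reaching from 0.275 to 0.938, an unadjusted p of 0.0333 and an edgeR adjusted p of 0.0699, while limma-voom with quality weights gave -1.07 on the log2 scale with an adjusted p of 0.0254 (26.2% of all genes lower) and DESeq2 an adjusted p of 0.135.

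Tbx1 (ENSMUSG00000009097, chromosome 16, 18580979 to 18590671, minus strand) encodes a T-box transcription factor enriched in beige cells of the mouse. It had 2.86, 2.96 and 2.24 CPM in knockout against 1.64, 1.61 and 2.0 CPM in wild type. The groups did not overlap, though knockout replicate 3 and wild-type replicate 3 were close. The fold was 1.53 (95% interval 1.02 to 2.29, edgeR adjusted p = 0.0839), and limma-voom placed it past the threshold with an adjusted p of 0.0278, where 26.6% of all genes were higher. Of 14 tested relatives of the surface, T-box, PRDM and LETM genes 1 was higher and 6 were lower, with a median of -0.29. By edgeR 22.6% of all tested genes were higher and 21.7% lower. Among the T-box genes Tbx15 and Tbx18 fell, by 0.66 and 1.23 on the log2 scale.

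Tmem26 (ENSMUSG00000060044, chromosome 10, 68723646 to 68782650, plus strand), a membrane protein gene used to sort beige precursors, had 1.26, 0.909 and 1.61 CPM in knockout against 2.997, 1.85 and 0.914 CPM in wild type. The groups overlapped, with wild-type replicate 1 alone well above the rest. The ratio was 0.660, its 95% interval running from 0.344 to 1.26 (edgeR adjusted p = 0.283), and the log2 value moved from -0.60 to -0.12 without wild-type replicate 1.

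Set in order of level per kilobase of exon, the knockout cultures held most Slc36a2, at 57.45 ± 6.995 CPM per kilobase (mean ± SD, n = 3). Kcnk3 (23.98 ± 2.098), Ucp2 (15.5 ± 1.62) and Letmd1 (13.9 ± 2.58) followed, then Ucp1 (3.70 ± 1.75), Ucp3 (2.60 ± 0.344), Prdm16 (1.21 ± 0.0944), Tbx1 (0.763 ± 0.110), Tmem26 (0.239 ± 0.0662) and Dio2 (0.0990 ± 0.0331). Ranges of neighbours in this order overlapped for Ucp2 with Letmd1 and for Ucp1 with Ucp3 and were separate for the other neighbours. In wild type the order was Slc36a2 (8.53 ± 2.17), Letmd1 (5.43 ± 0.714), Kcnk3 (5.0 ± 1.83), Ucp2 (2.99 ± 0.471), Prdm16 (1.01 ± 0.150), Tbx1 (0.497 ± 0.0621), Ucp3 (0.385 ± 0.175), Tmem26 (0.364 ± 0.198), Dio2 (0.198 ± 0.0372) and Ucp1 (0.0944 ± 0.0709). There the first 4 genes overlapped one after the other, as did the last 5, and Prdm16 was separate from both of its neighbours. Ucp1 was last of the 10 in wild type and stood between Letmd1 and Ucp3 in knockout.

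The genes were also set against the adipocyte marker RNA of the cultures. For this, the mean log2(CPM + 0.5) of the 16 adipocyte markers was subtracted from each gene's log2(CPM + 0.5) in the same library. Such values are not levels per adipocyte, as more cells and more marker RNA per cell cannot be told apart. The markers themselves were 2.27 log2 units higher in knockout on this scale. Their mean ran from 8.94 to 9.20 in the knockout libraries and from 6.29 to 7.10 in the wild-type libraries. A gene of unchanged level thus stands about 2.27 units lower in knockout by construction, and its groups tend to separate. With 3 libraries against 3 the design cannot give an exact 2-sided permutation p below 0.1, so these differences are descriptions. Ucp2, Ucp3 and Kcnk3 kept nearly the same distance to the markers in both genotypes, with differences of 0.08, 0.11 and 0.03 log2 units (knockout minus wild type, exact p = 0.6, 0.5 and 0.9) and overlapping groups, and with Adipoq alone as reference these turned to -0.03, -0.00 and -0.08.

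Slc36a2 was 0.48 log2 units higher relative to the markers in knockout, with separate groups (exact p = 0.1, the smallest possible). Letmd1, whose own level rose, was 0.94 units lower relative to the markers, also with separate groups (exact p = 0.1). Prdm16, Tbx1, Tmem26 and Dio2 were 2.02, 1.78, 2.66 and 2.90 units lower relative to the markers, each with separate groups (exact p = 0.1 for each). These distances largely carry the rise of the markers, as none of these genes passed the edgeR test on its own level. Ucp1 was 0.95 units higher with overlapping groups (exact p = 0.2). Its wild-type level is far below the added 0.5 CPM, which compresses the difference: with 0.1 added it was 2.27 units.

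**Figure D3:**
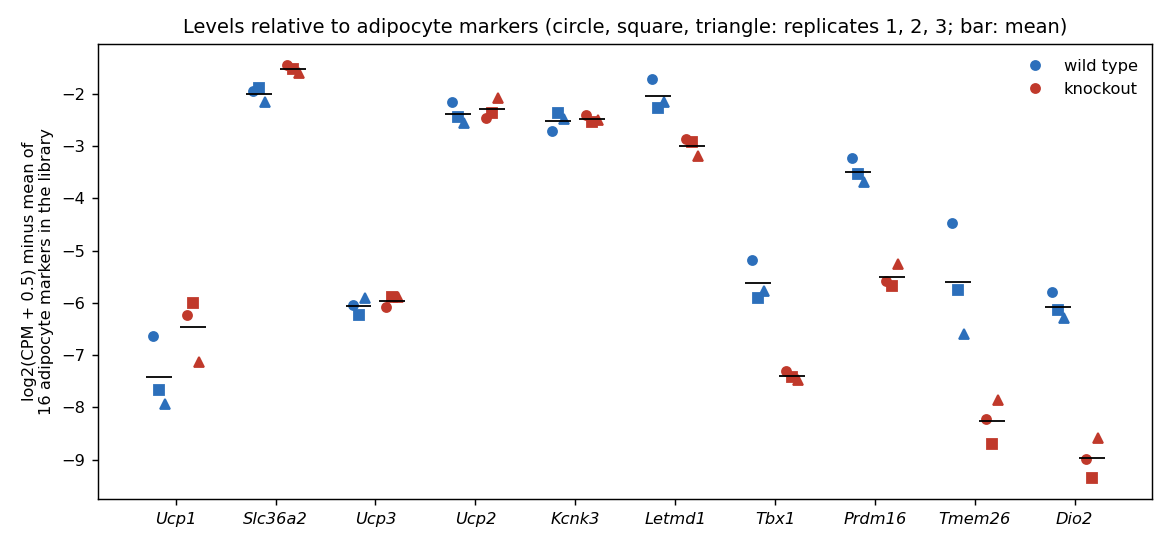
Log2(CPM + 0.5) of each gene minus the mean of 16 adipocyte markers in the same library (y axis), for 3 wild-type (blue) and 3 knockout (red) libraries, with group means as bars. Ucp2, Ucp3 and Kcnk3 overlap between genotypes, Slc36a2 is higher in knockout by 0.48, and Letmd1, Prdm16, Tbx1, Tmem26 and Dio2 are lower by 0.94 to 2.90. Because the markers rose, a gene of unchanged level also stands lower in knockout here.

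Among 28 listed regulators of the thermogenic programme 25 were tested, of which 13 were higher and 3 lower, with a median log2 fold change of 0.36. The shares over all tested genes, to be held beside the counts of every list, were 22.6% higher and 21.7% lower. Ppara, the fatty acid receptor of oxidative tissues, was at 13.5 ± 4.15 CPM in knockout against 1.18 ± 0.377 in wild type. Ppargc1b, a coactivator of mitochondrial genes, was at 30.0 ± 3.09 against 4.72 ± 1.59 CPM, and Esrra, a nuclear receptor that works with it, rose by 1.16 on the log2 scale. Irf4, a factor of thermogenic gene control, had 56, 67 and 22 counts in knockout against 1, 2 and 7 in wild type. Like Ucp1, it passed the filter on low counts through knockout libraries alone, so a call as lower was hardly open to it. Ebf2, which marks brown and beige precursors, rose by 0.69. Foxc2 fell by 1.56.

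Of 35 brown and beige effector genes 29 were tested, 16 higher and 6 lower (22.6% and 21.7% over all tested genes), and the median was 1.249. Cidea, Cox8b and Cpt1b, counted as higher, passed the filter on low counts through knockout libraries alone, so a call as lower was hardly open to them. Cox8b, a respiratory chain subunit gene typical of brown fat, had 54, 133 and 32 counts in knockout against 1, 0 and 2 in wild type, every wild-type library being under the floor of 3 counts. Its fitted fold was 61.4 with an edgeR 95% interval from 15.3 to 246, and rests on 3 wild-type counts in all. Otop1, a proton channel gene of thermogenic fat, was at 7.94 ± 3.49 against 0.806 ± 0.314 CPM. Gk, which makes glycerol 3-phosphate from free glycerol, was at 116 ± 5.45 against 28.6 ± 5.74 CPM. Mtus1 rose by 1.56 on the log2 scale and Klhl13 fell by 1.53. The transcription factor genes Shox2 and Hoxc9 fell by 0.59 and 0.44, and the fatty acid carrier gene Fabp3 by 1.32. Acot11 and Ckb fell by 1.01 and 0.49. Tnfrsf9, Cd40, Ear2, Sp100, Epsti1, Pm20d1 and Kng2 did not pass, with values from -0.65 for Pm20d1 to 0.75 for Epsti1. Among L1 libraries alone the calls for Hoxc9 and Fabp3 ended, and that for Fabp3 also ended without knockout replicate 2 or wild-type replicate 1.

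Markers used to tell classical brown from beige fat gave mixed values, 3 higher and 1 lower of 8 tested (median 0.56). For this and the next lists, 22.6% of all tested genes were higher and 21.7% lower, and such short lists hold few calls. Ebf3 rose by 0.67 and Hspb7 fell by 0.60. Pdk4 and Fbxo31 rose by 1.249 and 0.93, but both calls ended without knockout replicate 2, that for Fbxo31 also without wild-type replicate 1 or 2 and among L1 libraries alone, and that for Pdk4 also without the filter on low counts. Zic1, a gene of classical brown fat, had 6 to 10 counts in knockout against 10 to 16 in wild type, and Myf5 had 0 in all libraries. Lhx8, of the same list and better counted, went the other way. It had 103, 107 and 138 counts in knockout against 76, 63 and 94 in wild type. Neither Zic1 nor Lhx8 passed (edgeR adjusted p = 0.185 and 0.0799). White-fat markers were 5 higher and 1 lower of 14 tested (median 0.58), among them Slc7a10 at 14.3 ± 2.28 against 0.798 ± 0.321 CPM and the hormone gene Retn at 76.1 ± 21.4 against 16.99 ± 4.00 CPM. Hoxc8 fell by 0.24. Nnat, Hoxc10, Psat1, Wfdc21, Igfbp3, Dpt, Mest and Wt1 did not pass, with values from -0.39 for Nnat to 0.65 for Wfdc21. Lep, with 2, 5 and 4 counts in knockout against 3, 11 and 4 in wild type, was not tested. Of 10 listed opponents of the brown programme, 5 were higher and 2 lower (median 0.19). Zfp423, which restrains thermogenic genes in white fat cells, rose by 1.24 and Zfp521 fell by 1.23.

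**Figure D4:**
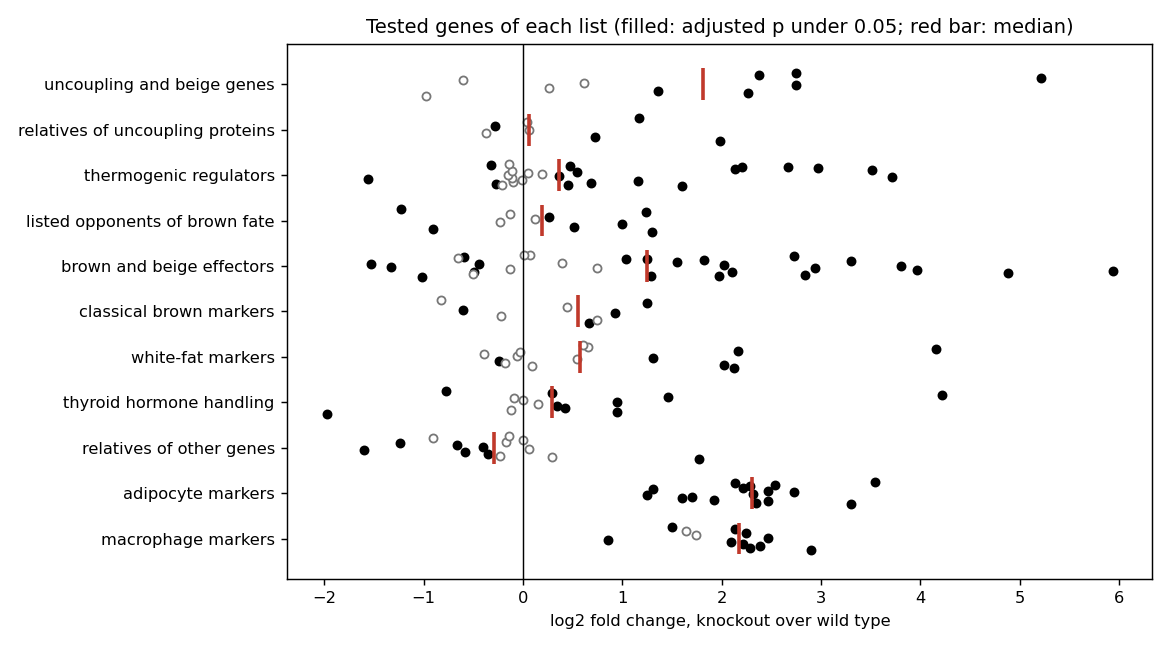
Log2 fold change, knockout over wild type, of every tested gene in the lists named at the left; filled points have an edgeR adjusted p under 0.05 and red bars are list medians. Medians of the lists drawn run from -0.29 for the relatives of the surface, T-box, PRDM and LETM genes to 2.30 for the adipocyte markers, with 1.81 for the 10 genes described here. Among lists not drawn, medians ran from -3.44 for the epithelial markers to 0.05 for the endothelial markers.

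Thyroid hormone genes other than Dio2 were 7 higher and 2 lower of 13 tested (median 0.29), against 22.6% and 21.7% of all tested genes. Dio3, the deiodinase that inactivates the hormone, was at 3.26 ± 0.219 CPM in knockout against 12.8 ± 1.48 CPM in wild type and fell by 1.97 on the log2 scale. The receptor gene Thrb rose by 1.46, whereas Thra, at -0.09, did not pass. The hormone transporter gene Slc16a10 rose by 0.95. Wsb1, whose product is known to mark DIO2 for degradation, fell by 0.77.

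Among 8 relatives of the uncoupling proteins in the mitochondrial carrier family 7 were tested, 3 higher and 1 lower (median 0.06). Of all tested genes 22.6% were higher and 21.7% lower. The dicarboxylate carrier gene Slc25a10 was at 152 ± 4.33 against 38.6 ± 8.38 CPM, and Slc25a5, an ADP/ATP carrier gene, at 393 ± 60.9 against 174 ± 20.1 CPM. Slc25a11 rose by 0.72. The brain-type uncoupling protein genes Slc25a14 and Slc25a27 did not pass, with log2 fold changes of -0.37 and 0.06. Slc25a30 fell by 0.28, a call that ended without knockout replicate 3 or wild-type replicate 2 or 3, and among L1 libraries alone.

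The knockout libraries did not carry these genes equally. Ucp1, Cidea, Cox8b and Irf4 were each lowest in knockout replicate 3, at 2.97, 1.22, 1.56 and 1.07 CPM, against 6.54, 4.84, 2.97 and 3.08 CPM in replicate 1 and 8.64, 4.94, 7.56 and 3.81 CPM in replicate 2. Otop1 was highest in replicate 3, at 11.8 against 7.04 and 5.0 CPM. Of the 16 brown and beige effectors called higher 12 had their lowest knockout value in replicate 3, as had 12 of the 16 adipocyte markers and 51.7% of all 3342 genes called higher. The same library held the most macrophage marker RNA, and the part of those cells in these values was not tested. Without it the log2 fold change of Ucp1 was 5.55 and that of Letmd1 1.51, and all 6 genes that rose still passed.

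**Figure D5:**
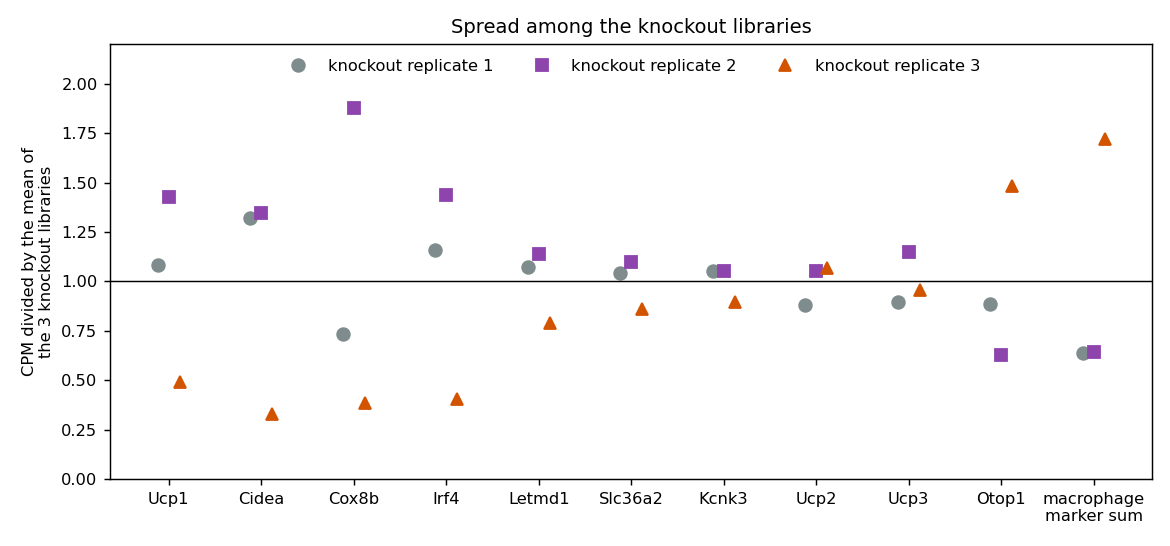
Level of each gene, and the sum of 12 macrophage markers, in the 3 knockout libraries, as CPM divided by their mean (y axis, from 0); grey circles, purple squares and orange triangles are replicates 1, 2 and 3. Replicate 3 is lowest for Ucp1, Cidea, Cox8b and Irf4 and highest for Otop1 and for the macrophage sum of 811 CPM.

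The genes whose log2 CPM followed Ucp1 most closely over the 6 libraries were Acsl3 (Pearson r = 0.9985), C1qtnf12 (0.997), Hdhd2 (0.996), Pkig (0.996) and Trabd (0.995), out of 13571 genes with a mean of at least 1 CPM. As 6.07% of those genes reached an r of 0.95, with points that share libraries and fall into the 2 genotypes, the values describe a ranking and no more. Their changes were far smaller than that of Ucp1: C1qtnf12, a gene of a fat-secreted protein, was at 53.8, 64.3 and 45.6 CPM in knockout against 24.7, 19.8 and 19.4 CPM in wild type. Acsl3, an acyl-CoA synthetase gene, was at 35.5, 37.1 and 30.9 against 22.7, 20.02 and 18.8 CPM. After centring within genotype, the genes of the lists closest to Ucp1 were Tbx2, then Slc25a4 (r = 0.948) and Eva1b (r = 0.944), of 183, and none of these 3 passed the test between genotypes (edgeR adjusted p = 0.767, 0.805 and 0.18). The wild-type values of Ucp1 in this ranking rest on 5, 2 and 1 counts, and Tbx2 had 14 to 34 counts per library. It too describes a ranking and no more.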

How the data were processed

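The authors deposited raw counts for each Ensembl gene, made with STAR and featureCounts on mm10 or GRCm38 per the submitters' processing notes. Ribosomal RNA was depleted and reads were pairs of 150 bp, per the labels' protocols. Not given in the sources used here: versions, gene annotation, strand setting and the treatment of multiply mapped reads; thus counts in exons shared with antisense genes are uncertain. Symbols, positions and exon lengths came from GENCODE mouse release 21 (GRCm38), which held 53706 of 53801 identifiers.

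Genotype and replicate number came from the sample titles. The test was run in edgeR 4.0.16 (R 4.3.3): filterByExpr (minimum count 10, minimum total 15), which left 14816 of 28268 genes with any count, TMM scaling, robust dispersions, and the legacy quasi-likelihood F test, 2-sided, with genotype as the single term and Benjamini-Hochberg adjustment at 0.05. CPM values are TMM-scaled. Intervals are 95% intervals of the fitted fold change. P-values refer to the spread between replicates and cannot separate genotype from any step of isolation, culture or library making done at the same time. Within a genotype no library was a copy of another: chi-square per degree of freedom between their counts was 10.2 to 26.3.

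The genes and the 17 further lists were chosen with earlier results of these data known. The text names all 10 genes, and from each list up to 4 genes with the smallest p, at least 1 CPM and a passed test, or the 2 most abundant; other list members, among them Cidea, Cox8b, Irf4, Otop1, Zfp423, Foxc2, Ebf2, Mecom, Ctbp2, Hoxc9, Shox2, Fabp3, Zic1, Thra and Slc16a10, and the neighbouring genes, were chosen once their values had been seen. Lists are described by counts and medians, without a set test. Some genes, among them Pdk4, Lpl, Pparg and Cebpa, belong to more than a single list. The fit was tested on simulated counts, with 49 or 50 genes changed at each size among 14573, where it recovered 6% of those changed 1.25-fold, 40.8% at 1.5-fold, 73.5% at 2-fold and 94% at 4-fold and made 7 false calls. Far fewer genes were changed there than the 44.3% called in the data. The adjustment was therefore stricter in the simulation, and its rates do not give the sensitivity of the real test. Other settings tried were DESeq2 1.42.0, limma-voom (limma 3.58.1), upper-quartile or RLE factors, edgeR without the legacy setting, other filters, the replicate block, the library suffix, L1 libraries alone, protein-coding genes, removal of the 50 most abundant genes, and each library left out; leaving libraries out of the values relative to adipocyte markers was added after seeing the data.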

Additional observations from a re-analysis of the deposited data

How the results depend on the processing

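The 6 genes that rose did so under every alternative run, with 7 under limma-voom, where Tbx1 joined them and Dio2 was 1 gene lower in place of 0; leaving out each library gave 6 to 6 higher and 0 to 0 lower. Over all genes these leave-one-out fits gave 2741 to 3395 higher and 2535 to 3279 lower. The numbers of the replicates did not pair the libraries: same-numbered libraries had deviations correlated at -0.126, 0.0117 and -0.143. With the replicate block 6 of the 10 genes stayed higher and 3136 genes in all were higher and 2993 lower. Relative to adipocyte markers, the small differences changed sign: with Adipoq alone as reference Ucp2 was at -0.032, Ucp3 at -0.002 and Kcnk3 at -0.082, and without Pparg and Cebpa among the markers Kcnk3 was at -0.026. With 1 library left out Ucp2 ran from -0.033 to 0.197 and Kcnk3 from -0.064 to 0.108, and the other 8 genes kept their sign (Ucp1 0.689 to 1.34, Ucp3 0.026 to 0.188, Slc36a2 0.400 to 0.532, Letmd1 -1.05 to -0.776, Prdm16 -2.14 to -1.89, Tbx1 -1.92 to -1.56, Tmem26 -3.15 to -2.10, Dio2 -3.10 to -2.71). With the longest transcript as length the knockout and wild-type levels per kilobase were 27.2 and 5.24 for Ucp2, 77.0 and 11.4 for Slc36a2, 23.1 and 9.02 for Letmd1 and 1.07 and 0.697 for Tbx1, and the knockout levels 3.33 for Ucp3 and 1.31 for Prdm16, which put Ucp2 ahead of Kcnk3. Of the genes named that did not pass, 4 changed sign: Slc25a4 stood at -0.0179 with upper-quartile factors, at -0.11 among L1 libraries and from -0.046 to 0.12 with 1 library left out. Tbx2 stood at 0.031 under limma-voom and from -0.37 to 0.17 with 1 library left out. For Slc25a27 the leave-one-out range was -0.070 to 0.23 and for C2cd3 -0.10 to 0.043; the cause was not tested. Among the other genes named, the replicate block ended the calls for Pdk4, Fbxo31, Kcnk2 and Ctbp2 (adjusted p = 0.0976, 0.066, 0.0514 and 0.0593). L1 libraries alone ended those for Fbxo31, Kcnk2, Ctbp2, Slc25a30, Hoxc9 and Fabp3 (0.0969, 0.0941, 0.083, 0.0599, 0.0573 and 0.0678), no low-count filter those for Pdk4 and Ctbp2 (0.0777 and 0.0815) and DESeq2 that for Ctbp2 (0.056), while Ctbp1 passed with upper-quartile factors, limma-voom, L1 libraries and without wild-type replicate 3 (0.0218, 0.00741, 0.0171 and 0.0321), adjusted p by edgeR unless another tool is named. Letm2 passed as higher under limma-voom (0.0494), and Eva1b as lower among L1 libraries and without knockout replicate 2 (edgeR adjusted p = 0.0302 and 0.0332). Dio2 had no value with the filter of 1 CPM in 3 libraries. Depth limits Ucp1 in wild type (8 counts in all), Dio2 and Tmem26.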
